A study of Mus musculus with 21 samples.

Results

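The kappa variable (Igkv) genes make up 112 of the 14493 genes in the deposited count matrix of labelled mouse B cells and plasma cells, and they were taken as every gene whose symbol begins with Igkv. Each cell was assigned the Igkv gene with the most unique molecular identifiers (UMIs, each marking 1 captured RNA molecule), if that gene had 2 or more UMIs and at least 2 times as many as the next Igkv gene. Of 6619 cells, 5665 (85.6%) received such a dominant gene and are named called cells here. Of the 112 genes, 96 were dominant in at least 1 cell, 16 in none, 48 in all 6 mice and 47 in fewer than 10 cells.

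Mice were immunised at the tail base with 100 µg NP-KLH (a hapten on a carrier protein) in Sigma Adjuvant System, and were given 5 mg tamoxifen by gavage, no sooner than day 6, to switch on a Cre-ERT2 label. IgD-negative eYFP+ cells were sorted from draining lymph nodes on days 10, 16 and 22, 2 mice per day. Strain, age and the promoter driving the Cre are not given in the sources used here, and no unimmunised or unlabelled group is part of the data. Plasma cells (PC) and other B cells (non-PC) were captured in separate wells, and in each well the cells of all 6 mice were pooled and told apart by hashtag antibodies. The replicate is therefore the mouse, and days did not differ in library. States are those of the deposited annotation: LZ and DZ (light and dark zone germinal centre cells), LZtoDZ, preMem (memory precursors), prePC and PC; LZ, DZ and LZtoDZ cells together are called germinal centre cells.

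A kappa light chain is made when 1 of the many Igkv genes is joined to 1 of the few J genes (Igkj) upstream of the constant gene Igkc, so a B cell usually expresses a single V gene and its descendants keep it. Igkv genes lie in both orientations, and joining deletes or inverts the DNA in between. A B cell whose kappa rearrangements fail can rearrange the lambda locus, and lambda chains are a known feature of mouse responses to NP. In germinal centres, B cells divide and mutate in the dark zone and are selected in the light zone, and leave as memory or plasma cells.

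The 6 mice gave 573, 1619, 787, 1053, 1381 and 1206 cells (day 10 mice 1 and 2, day 16 mice 1 and 2, day 22 mice 1 and 2, the order kept below unless stated), with 7634 to 9459 median UMIs per cell and 1335 to 70744 UMIs over single cells. The PC well gave 234 of the 242 PC and 156 of the 5808 germinal centre cells. The plasma cell list was at 26527 CPM (counts scaled to a common library total) in PC against at most 3799 in any other state, the dark zone list was highest in DZ (997), and the memory precursor list in preMem (834). The light zone list was higher in preMem (1706) than in LZ (1380). Of the matrix's barcodes, 6 occurred in both wells and were kept as separate cells.

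The germline sequences of 6 genes are shown first, each with 5% or more of the called cells of a mouse and part of an Igkv-Ighv combination of at least 40 cells in 1 mouse, since they let a reader see how far the expanded genes differ. They are the last part of the V exon from GENCODE M21 (GRCm38), 5′ to 3′. The capitals run from the conserved cysteine codon, the last of the framework, to the end of the exon. The bases after that codon are the germline part of the third complementarity-determining region.

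Igkv9-120 (chr6:68050172-68050456, plus strand): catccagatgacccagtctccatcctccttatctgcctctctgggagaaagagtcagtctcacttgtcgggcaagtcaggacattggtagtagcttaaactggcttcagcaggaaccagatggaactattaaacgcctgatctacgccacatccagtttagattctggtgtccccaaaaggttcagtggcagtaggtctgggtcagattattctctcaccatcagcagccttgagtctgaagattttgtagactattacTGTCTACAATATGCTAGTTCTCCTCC
Igkv9-124 (chr6:67942074-67942358, minus strand): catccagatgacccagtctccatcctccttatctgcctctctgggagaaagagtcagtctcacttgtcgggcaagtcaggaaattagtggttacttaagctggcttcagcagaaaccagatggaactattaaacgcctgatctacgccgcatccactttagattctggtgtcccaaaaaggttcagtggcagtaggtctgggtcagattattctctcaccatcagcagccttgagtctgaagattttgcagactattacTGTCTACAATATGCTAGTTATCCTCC
Igkv14-111 (chr6:68256585-68256869, plus strand): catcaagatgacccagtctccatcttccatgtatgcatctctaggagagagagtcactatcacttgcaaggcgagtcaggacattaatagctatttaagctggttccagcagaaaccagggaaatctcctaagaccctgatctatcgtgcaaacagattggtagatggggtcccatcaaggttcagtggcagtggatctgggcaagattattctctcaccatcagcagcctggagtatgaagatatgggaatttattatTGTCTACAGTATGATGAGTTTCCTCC
Igkv12-98 (chr6:68570951-68571235, plus strand): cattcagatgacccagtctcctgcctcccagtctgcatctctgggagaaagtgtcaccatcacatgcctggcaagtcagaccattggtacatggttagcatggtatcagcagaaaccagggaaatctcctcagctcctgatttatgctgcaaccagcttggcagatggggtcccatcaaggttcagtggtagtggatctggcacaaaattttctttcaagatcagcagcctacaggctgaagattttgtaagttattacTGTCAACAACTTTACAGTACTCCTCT
Igkv1-135 (chr6:67610224-67610508, plus strand): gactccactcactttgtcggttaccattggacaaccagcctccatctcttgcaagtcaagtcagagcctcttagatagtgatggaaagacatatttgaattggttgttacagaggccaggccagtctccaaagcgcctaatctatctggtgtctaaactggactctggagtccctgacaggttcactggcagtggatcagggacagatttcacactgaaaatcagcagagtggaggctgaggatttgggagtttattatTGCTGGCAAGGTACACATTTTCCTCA
Igkv3-2 (chr6:70698783-70699067, plus strand): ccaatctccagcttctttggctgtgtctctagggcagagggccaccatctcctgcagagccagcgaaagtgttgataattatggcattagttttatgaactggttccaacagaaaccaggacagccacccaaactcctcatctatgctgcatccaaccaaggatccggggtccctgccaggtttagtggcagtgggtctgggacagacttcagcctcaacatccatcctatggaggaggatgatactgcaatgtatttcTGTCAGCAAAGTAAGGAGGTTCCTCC

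Igkv9-120 and Igkv9-124 were 96.0% identical over the V exon, whereas Igkv9-120 shared 75.8% with Igkv14-111 and 58.5% with Igkv1-135. Among the 12 most frequent genes the closest other Igkv gene ranged from 74.2% identity (Igkv15-103 and Igkv10-94) to 96.8% (Igkv1-117 and Igkv1-110), so reads from the most similar genes could be split between them by the authors' counting. The call itself requires a 2-fold lead, so called cells cannot show how often counts were split evenly. In day 22 mouse 1 the 362 cells called for Igkv9-120 had a median of 98.5 UMIs of it and 0 of Igkv9-124, and the 183 cells called for Igkv9-124 had 75 and 1. The 21 cells called for Igkv9-124 in day 22 mouse 2 had Igkv9-120 UMIs at 9.41% of their own, against 0.877% in mouse 1, and Igkv9-120 was the second gene in 7 of them.

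The kappa locus spans chromosome 6 from 67555497 to 70704177 (GRCm38) over the members that could be placed, with Igkj1 at 70722562 to 70722599. Of the 112 genes, 108 matched 1 GENCODE gene, 97 of them annotated as functional V genes and 11 as pseudogenes. The plus strand held 42 genes with 54.8% of called cells (mean over mice) and the minus strand 66 genes with 44.0%. Pseudogenes were dominant in 76 cells, 66 of them for Igkv12-47. Igkv19-93.1, 1 of the 4 unplaced genes, was dominant in 71 cells.

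**Figure D1:**
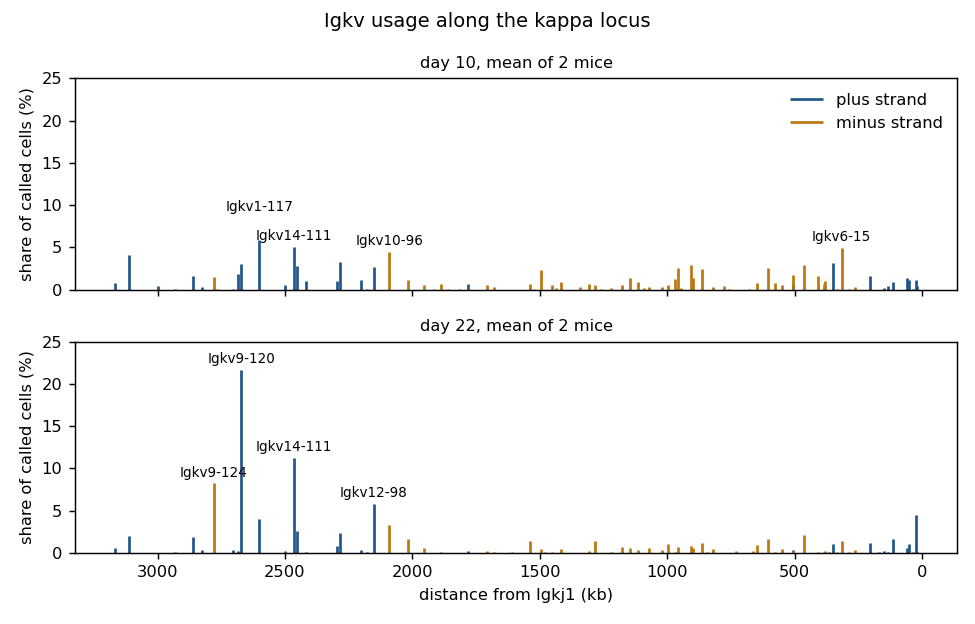
Share of called cells (percent, mean of the 2 mice) for each placed Igkv gene against its distance from Igkj1 in kb, on day 10 (top) and day 22 (bottom), coloured by strand. On day 10 no gene passes 6%, and on day 22 Igkv9-120, Igkv14-111 and Igkv9-124 stand above the rest.

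Usage was uneven. The 12 most frequent genes held 53.9% of called cells (mean over mice, each mouse with equal weight), and 26 genes reached 1% or more. Igkv9-120, in the distal part of the locus (chromosome 6, 68049983 to 68050456), led with 9.16% ± 10.6 (SD, n = 6 mice). Its shares were 4.04%, 2.06%, 3.05%, 2.53%, 28.4% and 14.9%, so the 2 day 22 mice stood above the other 4 with no overlap. Its lead rested on day 22 mouse 1: without that mouse its mean was 5.31% and Igkv14-111 was first with 8.73%. Igkv14-111 (68256389 to 68256869) followed with 8.51% ± 5.08, at 3.40%, 6.76%, 3.97%, 14.5%, 7.45% and 15%. Here 1 day 16 mouse was as high as the higher day 22 mouse, so the days overlapped.

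Igkv10-96 (68631963 to 68632442) was the third gene with 5.14% ± 2.72 and lay between 1.96% and 5.04% in 5 mice and at 10.2% in day 16 mouse 2. Igkv1-117 averaged 4.53% ± 2.02 and Igkv12-98 4.49% ± 3.85, the latter at 8.70% and 9.80% in day 16 mouse 1 and day 22 mouse 1 and at no more than 4.04% in the rest. Igkv9-124 was at 14.4% in day 22 mouse 1 and between 0.851% and 2.90% elsewhere (mean 4.12%, or 2.07% without that mouse). Igkv3-2, the Igkv gene nearest to the J genes among these 12 (23.5 kb from Igkj1), was at 8.75% in day 22 mouse 2 and at 1 cell (0.0784%) in day 22 mouse 1, with a mean of 2.95%, or 1.79% without day 22 mouse 2. Igkv6-15, Igkv1-110, Igkv1-135, Igkv15-103 and Igkv6-23 averaged between 2.56% and 3.55%. Spread over mice was smallest for Igkv6-23 (SD 0.768) and Igkv1-110 (SD 0.966), which no mouse used at 5% or more.

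**Figure D2:**
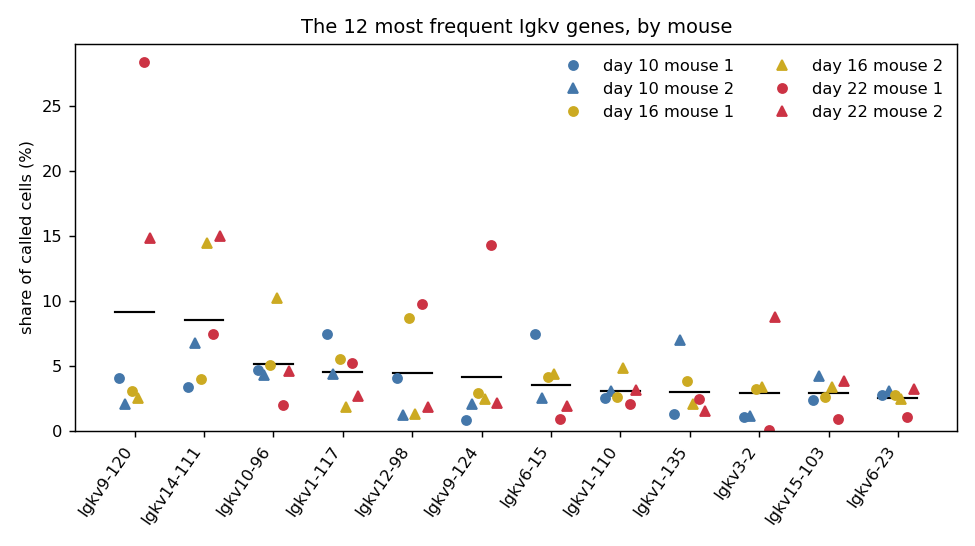
Share of called cells (percent) for the 12 most frequent Igkv genes, 1 point per mouse, with colour for the day, shape for the mouse number and a bar at the mean of 6 mice. Igkv9-120, Igkv9-124 and Igkv3-2 each have 1 or both day 22 mice far above the others.

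By gene family, Igkv9 (5 genes) held 13.3% ± 15.2 of called cells and ranged from 4.26% to 42.7% (day 22 mouse 1), and Igkv12 (8 genes) held 11.9% ± 4.48. The Igkv4 family was the largest with 31 genes but held 9.42% ± 2.64, and Igkv14 reached 9.50% ± 4.97 with 5 genes, nearly all of it from Igkv14-111.

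Part of the calls came from low counts. Lambda cells, those with Iglv UMIs at 2 or more times their Igkv UMIs, made up 634 of 6619 (9.58%), and 98.9% of them still held an Igkv UMI. They were at 18.3%, 12.4%, 11.8%, 8.93%, 3.19% and 8.13% of the cells of each mouse. Of these lambda cells 303 were called, with a median of 2 UMIs for the dominant gene against 63 in called kappa cells, and 153 of the 303 had exactly 2 UMIs. The median total was 9237 UMIs in lambda cells and 8340 in kappa cells. Igkv9-120 took 47 of them and Igkv14-111 took 32. In day 10 mice 1 and 2 the cells called for Igkv9-120 had a median of 3 UMIs each, and at 10 or more UMIs its shares were 2.10%, 0.945%, 2.19%, 2.51%, 29.0% and 14.7%. The gap between the day 22 mice and the other 4 was thus as wide with the low counts left out.

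Igkv diversity was next compared between days. Among 470 called cells, the number in the smallest mouse, the expected number of different Igkv genes was 71.0 and 72.5 on day 10, 64.2 and 63.5 on day 16, and 52.5 and 57.2 on day 22. The 3 days did not overlap, and the day means were 71.8, 63.9 and 54.9. An exact permutation test over the arrangements of mice over days gave p = 0.0667 (adjusted p = 0.133 over the 4 tests of richness). The test ignores the order of the days, and 0.0667 is the smallest p it can give with 2 mice per day. The effective number of genes, the inverse Simpson index, which weighs frequent genes more, was 34.8, 38.4, 32.9, 21.0, 8.14 and 15.7. The leading gene held 7.45%, 6.98%, 8.70%, 14.5%, 28.4% and 15% of called cells, and the leading 3 genes 19.6%, 18.1%, 19.2%, 29.6%, 52.5% and 38.6%. Which gene led differed: Igkv1-117 and Igkv6-15 tied in day 10 mouse 1, Igkv1-135 led in day 10 mouse 2, Igkv12-98 in day 16 mouse 1, Igkv14-111 in day 16 mouse 2 and day 22 mouse 2, and Igkv9-120 in day 22 mouse 1.

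To see how far large families of cells carry this, each cell was also given its dominant heavy chain V gene (Ighv) by the same rule, and each combination of an Igkv and an Ighv gene was counted once per mouse. A combination is not a clone, since unrelated cells can share it and the junctions are not read here. Of called cells 4756 (84.0%) had an Ighv call, in 1435 combinations. The largest combination held 3.80%, 4.92%, 4.57%, 3.71%, 27.1% and 11.5% of the paired cells of each mouse, and combinations of 10 or more cells held 6.18%, 17.1%, 15.5%, 28.2%, 60% and 40.2%. Counted once, the combinations gave effective numbers of Igkv genes of 46.1, 55.1, 45.5, 44.3, 38.4 and 36.6, where the same cells counted singly gave 34.3, 38.4, 32.6, 24.5, 8.30 and 16.1. The day 22 mice were the lowest either way, with a gap that was far smaller when combinations were counted once. With each combination counted once, Igkv14-111 led in both day 22 mice (8.88% and 9.12%) and Igkv9-120 in neither. This count was added after the values were seen and was not tested.

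**Figure D3:**
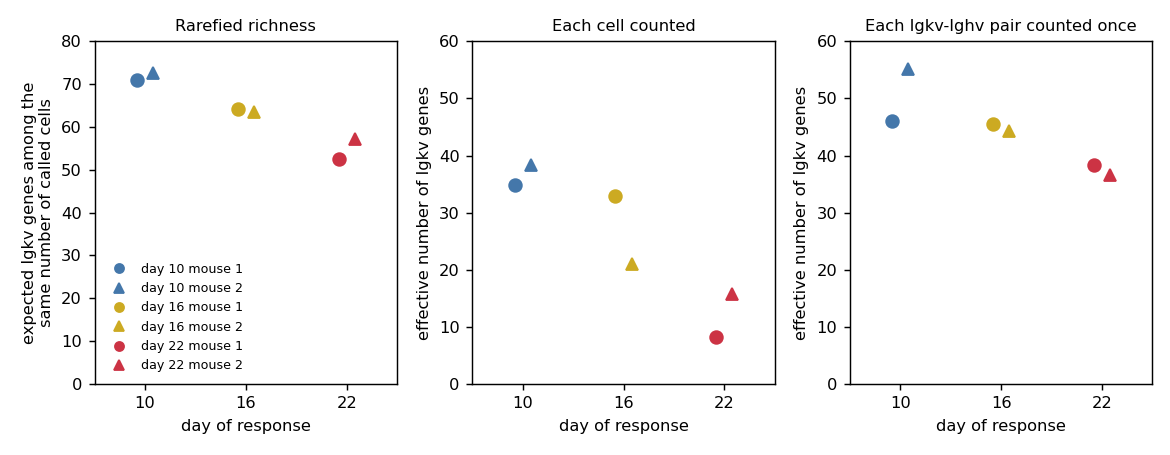
Igkv diversity per mouse by day of the response: expected genes among an equal number of called cells (left), effective number of genes over cells (middle) and over Igkv-Ighv combinations counted once (right), 1 point per mouse. The day 22 mice are lowest in each panel, and the fall in the middle panel (34.8 and 38.4 on day 10, 8.14 and 15.7 on day 22) is larger than in the right panel (46.1 and 55.1, then 38.4 and 36.6).

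Most Igkv9-120 cells of the day 22 mice used the same heavy chain gene. In day 22 mouse 1, 274 of its 279 paired cells used Ighv1-22, and in day 22 mouse 2, 88 of 115. With 10 or more Igkv UMIs the combination was present in every mouse, with 2, 3, 4, 2, 272 and 86 cells. Ighv1-22 was common outside it as well: without the Igkv9-120 cells it was dominant in 2.43%, 2.52%, 9.88%, 9.75%, 1.35% and 7.20% of cells with an Ighv call. The heavy chain classes of these cells were read from the same counts. Among the cells with 10 or more Igkv UMIs and a dominant constant gene, 99 of 147 were IgM and 11 IgG1 in day 22 mouse 1, against 20 and 21 of 52 in day 22 mouse 2.

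The other expanded genes had partners of their own. In day 22 mouse 1, Igkv12-98 paired with Ighv1-64 in 91 of 93 cells, of which 57 of 62 with a constant gene call were IgG2b. Igkv9-124 in the same mouse was split between Ighv1-58 (91 of 157 cells) and Ighv6-3 (52), so its share came from 2 large combinations, neither of which used the partner of the closely related Igkv9-120. Igkv3-2 paired with Ighv1-53 in 70 of 75 cells of day 22 mouse 2, and in no other mouse was Ighv1-53 its partner. On day 10, Igkv1-135 with Ighv1-81 held 61 cells of mouse 2 (52 of 56 IgM), and Igkv6-15 with Ighv1-72, a heavy chain gene known from NP responses, held 16 cells of mouse 1. Igkv10-96 had 56 partners over the 241 paired cells of all mice, but in day 16 mouse 2, where its share was highest, Ighv6-3 (26 of 80 cells) and Ighv1-12 (21) made up most of it.

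Most combinations were seen in 1 mouse. At 10 or more Igkv UMIs there were 1363 combinations in 4463 cells, of which 957 were seen in 1 mouse, 406 in 2 or more, 137 in 3 or more and 3 in all 6. Besides Igkv9-120 with Ighv1-22, those in all 6 were Igkv14-100 with Ighv1-81 (2, 12, 1, 1, 3 and 1 cells) and Igkv10-96 with Ighv1-53 (1, 1, 1, 10, 4 and 1). Igkv14-111 with Ighv1-81 had 0, 40, 1, 6, 3 and 16 cells. Its class varied as well, with 29 of 33 cells IgM in day 10 mouse 2 and 10 of 12 cells IgG1 in day 22 mouse 2. Single cells of a combination in another mouse rest on the hashtag assignment, and its part was not tested.

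The states of 1 mouse were compared through the Morisita-Horn index, which is 1 when 2 repertoires use the same genes in the same proportions and 0 when they share none. LZ and DZ cells of the same mouse were alike, at 0.806, 0.855, 0.869, 0.905, 0.785 and 0.916, whereas LZ cells of a mouse and DZ cells of the other mice averaged 0.492 to 0.636. Own-mouse similarity was higher in 6 of 6 mice (0.856 ± 0.0522 against 0.560 ± 0.0503, SD; exact 1-sided permutation test over pairings, p = 0.00139, the smallest possible, adjusted p = 0.00417 over 3 tests). In all 6 mice the most similar DZ repertoire was that of the same mouse.

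The similarity of memory precursors to the germinal centre cells of their own mouse was 0.616, 0.881, 0.567, 0.746, 0.163 and 0.535, against 0.471 to 0.615 with other mice. It was above the mean of other mice in 5 of 6 (mean difference 0.0618 ± 0.208, SD; exact 1-sided permutation p = 0.00694, adjusted p = 0.0104). The call was lost without day 10 mouse 2 (adjusted p = 0.05), with cells thinned to equal depth (adjusted p = 0.0917), and with the dominant gene required at 5 times the next (adjusted p = 0.05). Thinning was to 4727 UMIs, here and below, and left out the 662 cells with fewer, so it also changed the set of cells. The median was 5356.5 UMIs in memory precursors and 8556.5 in germinal centre cells. Day 22 mouse 1 went the other way: its memory precursors resembled the germinal centre cells of other mice (0.486) more than those of their own (0.163). In 2 of 6 mice the germinal centre repertoire most similar to the memory precursors was that of the same mouse. For PC over the 5 mice with 10 or more called cells, own-mouse similarity was 0.343, 0.757, 0.613, 0.507 and 0.194 against 0.275 to 0.536, and did not pass the test (exact 1-sided permutation p = 0.117, adjusted p = 0.117). Without day 16 mouse 1, which had 12 PC, the mean difference was 0.0772 and the exact p was 0.0417, and without day 10 mouse 2 the mean difference was 0.0374. The germinal centre repertoire most similar to the PC was that of the same mouse in 3 of 5 mice.

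**Figure D4:**
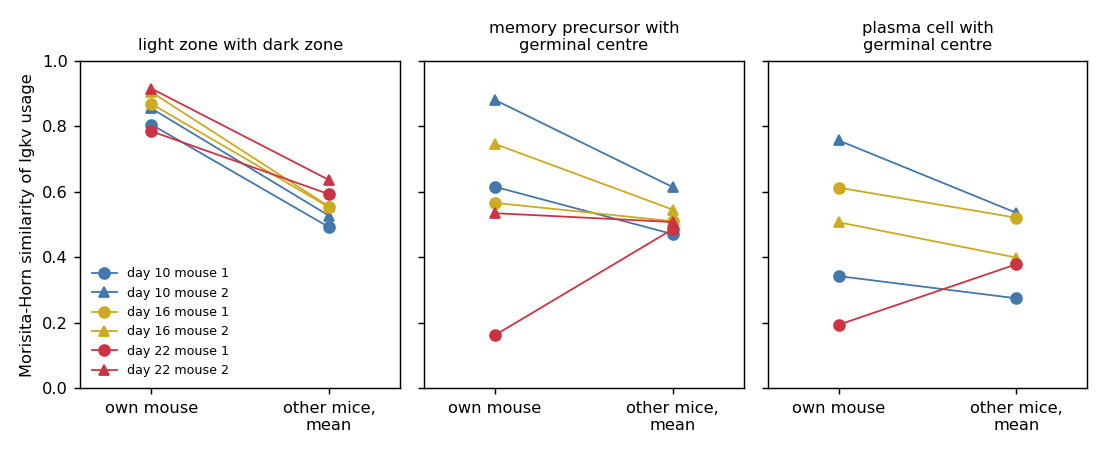
Morisita-Horn similarity of Igkv usage (0 to 1) between 2 states of the same mouse (left point) and between the first state of a mouse and the second state of the other mice (right point, mean), 1 line per mouse. All 6 lines fall for light zone with dark zone cells, and the line of day 22 mouse 1 rises in the other panels (0.163 to 0.486 and 0.194 to 0.379).

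Memory precursors showed higher Igkv richness than germinal centre cells, in a comparison that did not pass after adjustment. The expected number of genes among 10 called cells was 8.86, 8.93, 9.37, 8.85, 8.76 and 8.96 in memory precursors and 8.81, 8.90, 8.74, 8.21, 6.36 and 7.78 in germinal centre cells. The SD over mice was 0.218 in memory precursors and 0.969 in germinal centre cells, where the day 22 mice were the lowest. The difference of 0.818 ± 0.884 (SD) was positive in 6 of 6 mice (2-sided exact permutation p = 0.0312, the smallest possible), with an adjusted p of 0.125. It was 0.503 without day 22 mouse 1, and 0.553 in cells thinned to equal depth, where 4 of 6 mice were positive (exact p = 0.219). Genes of a naive B cell list were at 798 CPM in memory precursors and at most 317 in other states, and their part in this difference was not tested. In day 22 mouse 1 the leading memory precursor gene was Igkv10-96 (5 of 42 called cells), and no memory precursor was called for Igkv9-120, out of 362 Igkv9-120 cells (0 of 362 allows a share of up to 0.829%, counting error only). Of the other called cells of that mouse 4.60% were memory precursors. In day 22 mouse 2, 0.676% of 148 Igkv9-120 cells were memory precursors (3.78% of the rest). In day 10 mouse 2 the direction was the other way, with 32.1% of 28 (17.9%), at a median of 3 UMIs of the gene.

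LZ cells were at 8.80, 8.88, 8.86, 8.23, 7.22 and 8.03 genes and DZ cells at 8.76, 8.87, 8.54, 8.27, 5.52 and 7.39, a difference of 0.445 ± 0.667 (SD; 5 of 6 mice; 2-sided exact permutation p = 0.125, adjusted p = 0.167) that did not pass the test. The gap was widest in day 22 mouse 1, without which the difference was 0.194. There, 240 of the 362 Igkv9-120 cells were DZ (66.3%, 95% Clopper-Pearson interval 61.2% to 71.2%, which covers counting error only) against 36.7% of other called cells. Igkv9-120 was at 41.7% of that mouse's DZ and 17.5% of its LZ cells, and in day 22 mouse 2 49.3% of its 148 cells were DZ against 37.2% of the rest. For Igkv14-111 the direction differed between mice: 30.5% of 95 cells were DZ in day 22 mouse 1 (46.3% of the rest, Igkv9-120 cells included), 42.3% of 149 in day 22 mouse 2 (38.5%) and 34.8% of 92 in day 10 mouse 2 (23.5%). These shares describe cells of single mice and were not tested.

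**Figure D5:**
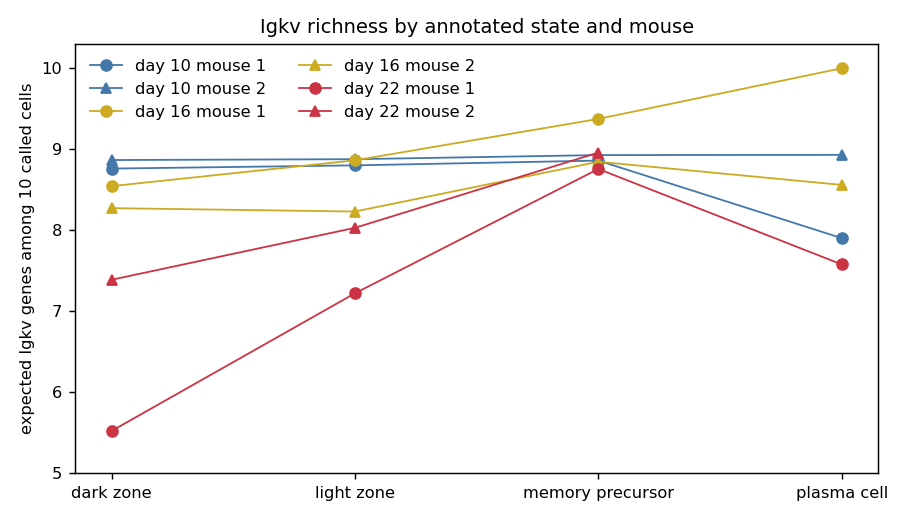
Expected number of different Igkv genes among 10 called cells in dark zone, light zone, memory precursor and plasma cells, 1 line per mouse (plasma cells of day 22 mouse 2 are left out, with 9 called cells). The vertical axis starts at 5. Day 22 mice are low in the dark zone (5.52 and 7.39) and near the other mice in memory precursors (8.76 and 8.96).

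Plasma cells carried the most Igkv RNA. In PC, Igkv genes took 92826, 108371, 163552, 85024, 136413 and 122759 CPM (here of all UMIs of the population), and in germinal centre cells 8189, 7594, 6916, 7608, 8739 and 8506, so the groups did not overlap. The log2 ratio was 3.87 ± 0.394 (SD; higher in 6 of 6 mice; 2-sided exact permutation p = 0.0312, the smallest possible). Nearly all PC came from the PC well and nearly all germinal centre cells from the other well; against germinal centre cells of the PC well, in 4 mice with 10 or more, the ratio was 4.35. The median UMIs of the dominant gene were 48 in LZ, 78 in DZ, 36 in memory precursors, 184.5 in prePC and 2204 in PC. Relative to the constant gene Igkc, Igkv UMIs were at 13.2 ± 1.66 per Igkc UMI in PC and 6.49 ± 0.736 in germinal centre cells.

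The share of cells with a call was 78.9%, 90.6%, 100%, 93.1%, 95.3% and 75.0% in PC and 81.0%, 82.6%, 82.4%, 86.3%, 92.2% and 82.2% in germinal centre cells. PC were higher in 4 of 6 mice, by 4.36 percentage points ± 8.61 (SD; 2-sided exact permutation p = 0.281). When the dominant gene had to hold 5 times the UMIs of the next, PC were higher in 6 of 6 mice by 12.9 points (exact p = 0.0312). In cells thinned to equal depth the difference was 1.88 points (3 of 6 mice, exact p = 0.719), without day 16 mouse 1 it was 1.72 (exact p = 0.562), and without day 22 mouse 2 it was 6.67.

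PC repertoires rested on few cells: the 219 called PC used 52 Igkv genes, 20 of them in 1 mouse only. Their leading genes were Igkv6-17 (4 of 15), Igkv10-96 (9 of 115), no repeated gene among 12 PC of day 16 mouse 1, Igkv10-94 (5 of 27), Igkv1-135 (11 of 41) and Igkv9-120 (3 of 9). In day 22 mouse 1 the PC lead differed from the germinal centre lead: Igkv1-135 held 26.8% of called PC, whereas Igkv9-120, at 30.4% of called germinal centre cells, was called in 1 PC. Of the 31 Igkv1-135 cells in that mouse 35.5% were PC. Richness in PC was 7.90, 8.93, 10, 8.56 and 7.58 genes among 10 cells in the 5 mice with enough, 0.387 ± 0.902 above germinal centre cells (SD; exact permutation p = 0.312, adjusted p = 0.312). The difference was 0.712 without day 10 mouse 1, 0.170 without day 16 mouse 1 and 0.180 without day 22 mouse 1.

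Counts summed per mouse and population were then fitted across all genes with edgeR's quasi-likelihood test, with the mouse as a block and Benjamini-Hochberg adjustment. Between PC and germinal centre cells, 13 of 65 tested Igkv genes differed at an adjusted p under 0.05, 5 higher and 8 lower in PC, where 46.0% of all 9143 tested genes differed (20.4% higher, 25.5% lower). The median log2 difference in this fit was 0.01 over the Igkv genes and −0.14 over all genes. That 0.01 is not the level of Igkv RNA as a whole, which was higher in PC by a log2 ratio of 3.87. Igkv5-48 was fitted at −4.13 with a mean of 4204 CPM in PC against 64.9, being higher in PC of 1 mouse. With the mouse block left out 45 Igkv genes were called, 39 higher and 6 lower, with a median of 3.99. Against germinal centre cells of the PC well alone 6 of 20 tested Igkv genes were called, all 6 higher in PC, and without day 22 mouse 2 the count was 20, 10 in each direction.

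The 6 named genes with lower CPM in PC of every mouse had no called PC at all. They were dominant in 14 to 54 of 4943 called germinal centre cells each, and only 219 PC were called. Whether so few PC could miss these genes by sampling was not tested, and the adjusted p values below do not measure it. Igkv17-121 was at 1.99 ± 2.28 CPM in PC and 108 ± 76.6 in germinal centre cells (SD, n = 6 mice; log2 difference −5.61 ± 0.32, SE; edgeR adjusted p = 1.6e-07), with 36 called germinal centre cells. Igkv6-25, Igkv5-45, Igkv3-7, Igkv4-59 and Igkv4-74 fell by 1.87 to 4.95 on the log2 scale, and Igkv4-74 was at −5.23 without day 10 mouse 2. Of the 5 higher genes none was higher in every mouse. Igkv10-96 was at 8350 ± 5153 CPM against 212 ± 132 (log2 difference 5.09 ± 1.13; adjusted p = 0.0037; 5 of 6 mice), from 16 PC in 5 mice. Igkv12-98 (log2 difference 4.99 ± 1.28) rested on 5 PC, and Igkv1-117 (3.71 ± 0.97) on 6. Igkv RNA as a whole was higher in PC by a log2 ratio of 3.87, so these differences are not differences in usage. By mean share of called cells Igkv10-96 was higher in PC (7.51%, 5 mice) than in germinal centre cells (4.76%, 6 mice). Igkv12-98 (3.91% against 4.63%) and Igkv1-117 (3.42% against 4.73%) were lower. The other two, Igkv4-53 and Igkv4-80, with 3 PC and 1 PC, are named after their values were seen.

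Between LZ and DZ, 19 of 77 Igkv genes differed, 9 higher and 10 lower in LZ, against 33.9% of all 9390 genes (16.5% higher and 17.4% lower). Igkv2-137 (32.7 ± 16.8 CPM in LZ, 15 ± 17.4 in DZ; log2 difference 1.33 ± 0.27; adjusted p = 0.0014) and Igkv3-1 (34.0 ± 27.1 and 16.3 ± 23.8; 1.23 ± 0.28; adjusted p = 0.0038) were higher in LZ of 6 of 6 mice. Igkv2-137 was dominant in 34 germinal centre cells and Igkv3-1 in 13, and no cell of day 16 mouse 2 was called for Igkv3-1. Whether sampling of so few cells could give these 2 differences was not tested. Igkv3-12 (119 ± 62.6 and 165 ± 103; −0.44 ± 0.05; adjusted p = 1.7e-05) and Igkv9-124 (351 ± 432 and 468 ± 476; −0.55 ± 0.10; adjusted p = 0.00045) were lower in 6 of 6. Without the mouse block 4 Igkv genes were called, and none of these 4 named genes was among them. Igkv9-120 was lower in LZ in 5 of 6 mice (−0.91 ± 0.21; adjusted p = 0.0036). These values are RNA amounts, and Igkv genes as a whole were at 7544 ± 397 CPM of all UMIs in LZ and 8970 ± 898 in DZ. By called cells, Igkv9-124 held 3.90% of LZ and 4.71% of DZ (mean of 6 mice). In day 22 mouse 1, 46.4% of its 183 cells were DZ (44.9% of the rest), and in day 22 mouse 2, 23.8% of 21 (39.4%).

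Memory precursors and germinal centre cells differed in 20 of 74 Igkv genes, 12 higher and 8 lower in memory precursors, against 36.3% of all 9170 genes (16.2% higher and 20.1% lower). Igkv6-32 was the 1 called gene with the same direction in every mouse and at least 20 CPM, at 19.9 ± 18.7 CPM in memory precursors and 78.8 ± 40.9 in germinal centre cells (log2 difference −1.59 ± 0.24; adjusted p = 3.3e-05), and −2.43 without day 10 mouse 2. It was dominant in 57 cells, of which 51 were germinal centre cells and 4 PC, and 461 memory precursors were called. Whether sampling of so few cells could give this difference was not tested, and the adjusted p does not measure it. Igkv1-135 was higher in 5 of 6 mice (1.16 ± 0.29; adjusted p = 0.0033). Without the block 7 genes were called, 5 higher and 2 lower. In these 3 comparisons between states the share of Igkv genes called was below the share of all genes called.

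Between days, in germinal centre cells, 7 of 95 Igkv genes differed (edgeR, 3 days, adjusted p under 0.05), against 0.830% of all 10483 genes. Igkv12-47, annotated as a pseudogene (chromosome 6, 69750854 to 69751331, minus strand), was at 52.6, 77.3, 80.7, 84.4, 5.81 and 2.58 CPM. Both day 22 mice were below the other 4 (log2 difference −3.93, day 22 against day 10; adjusted p = 0.0040). Its shares of called cells, all states pooled, were 0.851% and 1.69% on day 10, 2.44% and 2.42% on day 16, and 0.0784% and 0 on day 22. Igkv9-120 was at 340, 189, 217, 434, 3239 and 1648 CPM (3.22; adjusted p = 0.021). Its call was lost without day 10 mouse 2 (adjusted p = 0.052) or day 22 mouse 1 (adjusted p = 0.063).

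Igkv14-100 was at 136 and 190 CPM on day 10 and between 8.21 and 29.5 later (−3.10; adjusted p = 0.022), and was not called without day 10 mouse 2 (adjusted p = 0.13), day 16 mouse 1 (0.058) or day 16 mouse 2 (0.062). Igkv9-129 (33.0 and 14.3 CPM on day 10, 0.738 to 3.04 later; adjusted p = 0.021) lost its call without day 16 mouse 2 (0.054). Igkv4-86 (20.6 and 20.4, then 0.384 to 3.62; adjusted p = 0.037) lost it without day 10 mouse 1 (0.092), day 10 mouse 2 (0.17) or day 22 mouse 1 (0.069), and with DESeq2 (0.098). Igkv9-129 was the dominant gene of no cell in any mouse (454 UMIs over 44 cells), and Igkv4-86 that of 1, a lambda cell. The other gene higher on day 22 than on day 10, Igkv5-37, was called for its day 16 values (13.2 and 6.91 CPM against at most 0.277 on the other days) and is named after its values were seen.

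Of a list of 31 other light chain genes and regulators, 26 are in the matrix and 25 were tested. The recombinase genes Rag1 and Rag2, with Dntt, Vpreb2 and Igll1, were not analysed here. Between PC and germinal centre cells 8 were higher and 14 lower (edgeR; 20.4% and 25.5% of all genes; median −0.89 against −0.14 over all genes). Igkc, the kappa constant gene, was at 11177 ± 2545 CPM in PC against 1002 ± 136 (3.46 ± 0.13; adjusted p = 6.7e-09), and Irf4, a plasma cell regulator, rose by 5.57 ± 0.19. The lambda constant genes Iglc1 and Iglc2 rose by 3.39 ± 0.16 and 2.79 ± 0.14.

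Between LZ and DZ, 6 of the 25 were higher and 10 lower in LZ, where 33.9% of all genes were called (16.5% higher and 17.4% lower). The B cell coactivator gene Pou2af1 was lower (−0.77 ± 0.03; adjusted p = 1.6e-10), as were Iglc1 (−0.65 ± 0.04) and Tcf3 (−0.56 ± 0.05), while the octamer factor gene Pou2f2 was higher (0.46 ± 0.03), each in 6 of 6 mice. In memory precursors 9 were higher and 5 lower, where 36.3% of all genes were called (16.2% higher and 20.1% lower). The higher genes with the lowest p were Iglc2 (2.06 ± 0.09), Cd79a (0.78 ± 0.04) and Iglc3 (1.10 ± 0.07), with Pou2af1 lower (−0.96 ± 0.07; adjusted p = 4.1e-09). Igkc did not pass the test there (0.17 ± 0.09; adjusted p = 0.15). Of the 3 lambda variable genes, Iglv1 was lower in memory precursors (−0.71 ± 0.25; adjusted p = 0.032), and Iglv2 and Iglv3 did not pass. Lambda cells made up 5.56% of memory precursors and 9.69% of germinal centre cells. Over days 1 of 25 was called, against 0.830% of all genes: Vpreb3, at 482 and 420 CPM on day 10 and 226 and 266 on day 22 (adjusted p = 0.047).

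In 711 cells (10.7%) no gene reached 2 times the next, and in 537 of them (8.11% of all cells) both leading genes had 10 or more UMIs, with medians of 51 and 36. Most were kappa cells (518), only 26 combined genes of the same family, and their median total was 9284 UMIs against 8364 in called cells. They were at 8.20%, 7.84%, 9.40%, 8.83%, 5.50% and 9.95% of the cells of each mouse, and at 8.17% of LZ, 9.07% of DZ, 7.66% of memory precursors and 2.07% of PC. Whether 2 cells in 1 droplet account for part of them was not tested, and no doublet caller was run.

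Some of these pairs were large and kept to 1 mouse. Igkv3-2 with Igkv8-24 was found in 27 cells of day 16 mouse 2 and in no other mouse. Of the 24 cells with an Ighv call 22 used Ighv1-22, against 9.78% of all cells of that mouse with an Ighv call. Igkv1-135 with Igkv2-112 was found in 20 cells of day 16 mouse 1 (16 of 18 with Ighv1-22), and Igkv18-36 with Igkv4-57-1 in 12 cells of day 22 mouse 2, all 12 with Ighv10-3. Igkv4-74 with Igkv9-124 was found in 12 cells of day 22 mouse 1 (11 of 11 with Ighv6-3). None of the cells of these 4 pairs was a PC or a memory precursor.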

How the data were processed

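The authors deposited 1 matrix of UMI counts per gene and cell from droplet 5′ RNA sequencing (per the labels' protocols) and a cell table with day, mouse and state; Cell Ranger, Seurat and GRCm38 are listed in the submitters' processing notes, with no versions. Members, gene lists and tests were chosen with earlier results of these data known. Every Igkv row was used; genes are named when among the 12 most frequent, leading in a mouse or state, at 5% of a mouse, or called by edgeR with at least 20 CPM and 1 direction in all mice (up to 6 per direction). Mice are the replicates; whether they differ in litter is not given. Cell values used exact permutation tests (Python 3.11.15, scipy 1.17.1), adjusted within families. Sums of 10 or more cells were tested with edgeR 4.0.16 (R 4.3.3; TMM, filterByExpr, mouse block), and DESeq2 1.42.0 as an alternative; both scripts were tested on simulated data. The same 6 mice supply both populations, which is where the pairing comes from. V exon sequences came from GENCODE M21, with identities from Biopython 1.88. Other alternatives are in the closing section. Promoter and recombination signal motifs were not analysed here. No doublet caller was run.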

Additional observations from a re-analysis of the deposited data

Results flagged for a closer look

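Over 27 sets of values by mouse, 4 had 1 mouse standing apart from the rest by Dixon's test, where chance gives about 1 in 20. In day 22 mouse 1 the leading gene held 28.4% of called cells (6.98% to 15% in the other mice), the share of Igkv9-124 was 14.4% (0.851% to 2.90%), and the largest Igkv-Ighv combination held 27.1% of paired cells (3.71% to 11.5%). In day 16 mouse 2 the share of Igkv10-96 was 10.2% (1.96% to 5.04%).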

How the results depend on the processing

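Over 13 results and their alternatives, 121 of 141 alternative values were counted as kept. That meant the same direction and side of the threshold, or a count within 1.5 times. Where too few mice were left for the test to pass, a move of less than 1 SD was counted as kept. This applied to the Igkv level ratio without 1 mouse, at 3.73 to 3.94. Its exact permutation p was 0.0625 there, the smallest possible with 5 mice. The reversal was PC against germinal centre richness, −1.69 as an effective number of genes (4 mice). The call share difference was 12.9 points with 5 times the next gene, 1.88 in thinned cells and 1.72 to 6.67 without 1 mouse. Own-mouse similarity of memory precursors was 0.0663 with 5 times the next gene and 0.0538 in thinned cells, and 0.0490 to 0.0773 without 1 mouse; for PC it was 0.0374 to 0.0772. The Igkv level ratio was 4.35 against germinal centre cells of the PC well. Counts of Igkv genes for PC, LZ, memory precursors and days were 13, 19, 20 and 7. They were 22, 9 and 7 for the first 3 with DESeq2, 37, 55, 35 and 35 of 112 genes with no filter, and, with the replicate block left out, 45, 4 and 7. The count for PC was 6 of 20 with germinal centre cells of the PC well only. Without 1 mouse they were 14 to 20, 15 to 22, 15 to 25 and 7 to 17, the 17 without day 22 mouse 2. The 120 mean shares of the 12 leading genes under other call rules or without 1 mouse moved by less than 1 SD, a wide bar where the SD exceeds the mean: without day 22 mouse 1 Igkv9-120 was at 5.31% and Igkv9-124 at 2.07%. Of the named edgeR genes, 157 of 171 values over 16 genes kept their call. Alternatives with kappa cells only or the non-PC well only were chosen after seeing the data. PC sums rest on 12 to 127 cells, and the unordered exact test over days cannot go below 0.0667.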
